A study of Homo sapiens with 15 samples.

Results

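The aminoacyl-tRNA synthetases are the enzymes that charge each tRNA with its amino acid, and 36 genes of this family and its scaffold were followed here among the 69215 genes listed. They were taken by gene symbol through their Ensembl identifiers and comprised 18 synthetases of the cytosol, 15 synthetases of mitochondria and 3 genes of the scaffold that holds several cytosolic enzymes together. All 36 were found, and all 36 passed the filter on low counts. The aspartyl- and valyl-tRNA synthetases were not analysed here. RNA was sequenced from monolayers of Caco-2, a human colorectal adenocarcinoma line that resembles enterocytes. The libraries comprised 5 from cells given polysorbate 80 (PS80), 5 from cells given polysorbate 20 (PS20) and 5 from control cells given no treatment. Both compounds were used at 0.05% for 24 h, and both are polyoxyethylene sorbitan esters used as emulsifiers. PS80 carries an oleate chain and PS20 a laurate chain. All groups shared the cell line and the monolayer culture, and nothing in the labels says that the 5 libraries of a group came from separate cultures, so the p-values measure only the spread between these samples.

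Each synthetase joins its amino acid to the matching tRNA in an ATP-dependent reaction, and the charged tRNA is then carried to the ribosome by an elongation factor. Cytosolic and mitochondrial protein synthesis use separate enzymes for most amino acids, all encoded in the nucleus. Genes of many cytosolic synthetases are known targets of ATF4, the transcription factor of the amino acid and integrated stress response, which binds the C/EBP-ATF response element. A part of the cytosolic enzymes is held in the multi-synthetase complex by AIMP1, AIMP2 and EEF1E1.

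Total counts per library ranged from 6769409 to 42271053 with PS80, from 6749086 to 17251564 with PS20 and from 4183096 to 13616301 in control. Of 10 intestinal epithelial markers, CDX1 and KRT20 lay under 1 CPM (counts scaled to library size) in every group. The markers summed to 9954 to 10440 CPM with PS80, 8141 to 8771 CPM with PS20 and 9595 to 11230 CPM in control. Each PS20 sum was thus below all of the other groups. The largest differences from control were in KRT8 (2684 against 4436 CPM on average) and KRT18 (1198 against 1826 CPM). VIL1 was also lower (657 against 801.5 CPM), while CDX2, CDH1 and ALPI were higher (244, 1706 and 103 against 189.5, 1574 and 76.9 CPM). With PS20 3 of 8 tested markers rose and 3 fell, where 24.4% of all tested genes rose and 23.9% fell. With PS80 1 rose and 0 fell, where 17.4% rose and 16.0% fell. The part of these markers in the results was not tested. Of 12 markers of fibroblasts, endothelium and blood, 8 were under 1 CPM. The sums of the 12 overlapped between PS80 (119.7 to 164 CPM), PS20 (127 to 144 CPM) and control (120.1 to 129 CPM). COL1A1 made up most of them, averaging 105.3 CPM with PS80, 100.1 CPM with PS20 and 96.4 CPM in control, beside COL3A1, LUM and PECAM1. Of 4 tested markers 1 rose with PS80 and 0 with PS20, and 0 fell with either, beside the shares of all tested genes given above. In bulk RNA, fewer cells of a type and less RNA per cell cannot be told apart.

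Part of the cytosolic promoters held the letters of the response element. RefSeq promoter windows on GRCh38.p14, from 250 bases before to 50 bases after the gene start, were matched for 33 of 36 genes, all but LARS1, YARS1 and AARS2. The motif TGATGNAA, searched on both strands with no other motif, was present in 6 of 16 cytosolic promoters (37.5%), in 1 of 14 mitochondrial promoters (7.14%) and in 0 of 3 scaffold promoters, against 1270 of 35116 promoters in the whole table (3.62%). In all 6 cytosolic promoters the variable letter was C, a form present in 304 of the 35116 promoters (0.866%); this form was singled out after the matches were seen. The 6 windows are shown because their genes all rose with PS20, with the motif in capitals on whichever strand it lay, and SARS1 is shown as the cytosolic gene with the smallest adjusted p with PS20 and no match in its window. The windows are AARS1 (chr16:70289457-70289756, minus strand), CARS1 (chr11:3057374-3057673, minus strand), IARS1 (chr9:92293648-92293947, minus strand), MARS1 (chr12:57487818-57488117, plus strand), NARS1 (chr18:57621787-57622086, minus strand), TARS1 (chr5:33440715-33441014, plus strand) and SARS1 (chr1:109213643-109213942, plus strand), each written 5′ to 3′ in the direction of its gene.
AARS1: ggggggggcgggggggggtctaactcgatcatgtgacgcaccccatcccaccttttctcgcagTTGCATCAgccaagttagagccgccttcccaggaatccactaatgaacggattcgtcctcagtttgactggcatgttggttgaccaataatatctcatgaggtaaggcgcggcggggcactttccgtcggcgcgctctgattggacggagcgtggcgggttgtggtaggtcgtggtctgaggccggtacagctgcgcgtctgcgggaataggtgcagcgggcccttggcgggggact
CARS1: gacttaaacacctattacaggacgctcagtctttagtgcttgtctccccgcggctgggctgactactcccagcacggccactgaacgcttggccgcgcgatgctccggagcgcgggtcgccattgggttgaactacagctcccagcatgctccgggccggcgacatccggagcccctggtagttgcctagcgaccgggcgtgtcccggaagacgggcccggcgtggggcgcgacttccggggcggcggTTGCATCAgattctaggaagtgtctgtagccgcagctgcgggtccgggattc
IARS1: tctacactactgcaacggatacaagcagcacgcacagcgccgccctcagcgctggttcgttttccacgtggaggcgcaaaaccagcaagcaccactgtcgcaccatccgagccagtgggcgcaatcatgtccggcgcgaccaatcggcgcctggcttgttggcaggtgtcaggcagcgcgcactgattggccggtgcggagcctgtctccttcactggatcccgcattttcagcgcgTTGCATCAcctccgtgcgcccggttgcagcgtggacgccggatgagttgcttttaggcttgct
MARS1: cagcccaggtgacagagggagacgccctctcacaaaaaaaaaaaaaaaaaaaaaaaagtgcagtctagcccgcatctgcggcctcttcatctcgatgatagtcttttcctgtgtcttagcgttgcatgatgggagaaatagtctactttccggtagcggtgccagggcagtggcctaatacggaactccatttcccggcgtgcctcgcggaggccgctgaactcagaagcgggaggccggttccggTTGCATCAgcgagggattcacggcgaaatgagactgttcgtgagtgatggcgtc
NARS1: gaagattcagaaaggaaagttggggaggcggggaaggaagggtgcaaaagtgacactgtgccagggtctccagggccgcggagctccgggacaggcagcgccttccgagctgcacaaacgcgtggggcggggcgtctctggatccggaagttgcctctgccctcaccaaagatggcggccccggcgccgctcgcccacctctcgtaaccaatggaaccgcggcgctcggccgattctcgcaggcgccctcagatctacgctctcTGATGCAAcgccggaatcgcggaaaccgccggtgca
TARS1: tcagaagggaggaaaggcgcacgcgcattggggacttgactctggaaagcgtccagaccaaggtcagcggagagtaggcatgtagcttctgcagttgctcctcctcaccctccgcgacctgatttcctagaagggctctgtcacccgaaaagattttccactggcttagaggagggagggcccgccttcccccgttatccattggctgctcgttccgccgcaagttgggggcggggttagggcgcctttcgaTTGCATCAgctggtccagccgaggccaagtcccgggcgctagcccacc
SARS1: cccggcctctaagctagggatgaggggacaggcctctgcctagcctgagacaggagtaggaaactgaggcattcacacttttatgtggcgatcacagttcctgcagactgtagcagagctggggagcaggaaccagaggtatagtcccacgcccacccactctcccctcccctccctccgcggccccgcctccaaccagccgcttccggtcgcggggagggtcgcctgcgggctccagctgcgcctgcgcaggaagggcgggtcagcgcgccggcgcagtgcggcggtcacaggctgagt

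The first base of the motif, as printed, lay 187 bases before the start in AARS1, 13 before it in IARS1, 4 before it in MARS1 and 2 before it in CARS1. It lay at distance 2 after the start in TARS1 and at distance 14 in NARS1. The other match among members was in the promoter of YARS2, the mitochondrial tyrosyl enzyme, 197 bases before its start and with G as the variable letter. A match is a description of the letters in this window and not of binding.

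Levels per transcript length in control cells spanned a wide range. The mitochondrial isoleucyl enzyme IARS2 had the highest level of all 36 genes, 529 ± 24.9 TPM (counts scaled to library size and to the deposited gene length; SD, n = 5). Next came EPRS1, a fused enzyme for glutamate and proline, at 353 ± 7.68 TPM and the lysyl enzyme KARS1 at 352 ± 19.2 TPM, which did not differ beyond their spread. QARS1, TARS1 and RARS1, the glutaminyl, threonyl and arginyl enzymes, followed at 267 ± 18 TPM, 264 ± 14.0 TPM and 255 ± 10.8 TPM, again within their spread. The median was 106 TPM over the cytosolic set, 84.9 TPM over the scaffold and 32.1 TPM over the mitochondrial set. The deposited length counts every annotated exon base, so genes with long rarely used exons, such as IARS1 with 22418 exonic bases, read low on this scale. The lowest levels, 7.70 ± 1.19 TPM for SARS2 and 0.604 ± 0.194 TPM for CARS1, are not read as expression. All 42 exon lengths of SARS2 and all 45 of CARS1 are shared with an annotated copy on a scaffold, and 48.2% of SARS2 exonic bases lie in another annotated gene.

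Most cytosolic synthetases were higher with PS20 than in control, while the mitochondrial ones moved in both directions. Of 18 cytosolic genes, 13 rose and 0 fell, where 24.4% of all 12769 tested genes rose and 23.9% fell (adjusted p below 0.05 in edgeR's quasi-likelihood test, adjusted over all tested genes by the Benjamini-Hochberg method), 48.3% in either direction. The median log2 fold change was 0.26 over the cytosolic set and 0.01 over all tested genes. In 12 of the 18 genes every PS20 library was above every control library, as in 16.2% of all tested genes. Both the 13 and the 12 include CARS1, whose low level is not read as expression. Of 15 mitochondrial genes, 5 rose and 4 fell, with a median of -0.06. In the scaffold, 2 of 3 genes fell and 0 rose. The counts of 0 were also 0 at an unadjusted p below 0.05 in edgeR, and 0 cytosolic genes fell in DESeq2. The heat map of all 36 genes sets these side by side in each library.

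**Figure D1:**
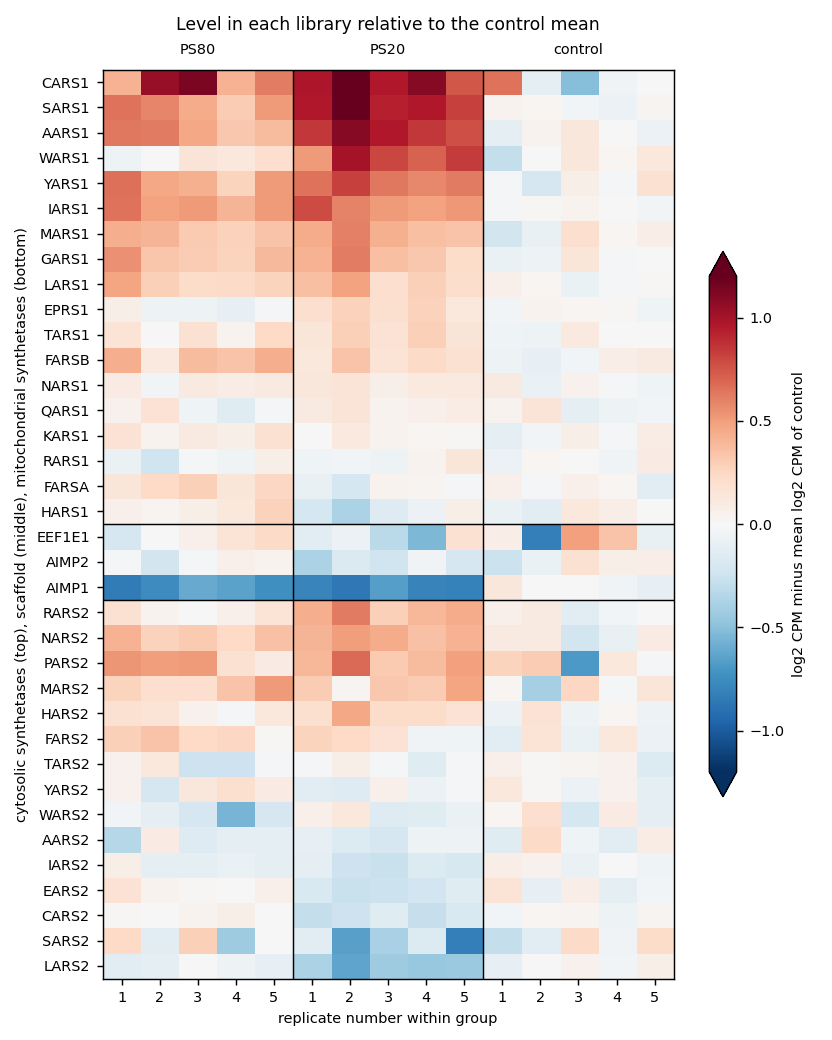
Log2 CPM of each of the 36 genes in each library minus the mean log2 CPM of the 5 control libraries, with PS80, PS20 and control libraries from left to right and cytosolic, scaffold and mitochondrial genes from top to bottom, each ordered by the change with PS20. Colours saturate at 1.2 in either direction; the upper cytosolic rows are red in all PS20 libraries, and AIMP1 is blue in all PS80 and PS20 libraries.

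Among cytosolic enzymes, the seryl enzyme SARS1 (chromosome 1, 109213918 to 109238182, plus strand, GENCODE 42 on GRCh38) had 169.9, 201, 167, 170 and 154 CPM in the PS20 libraries, against 90.0, 89.0, 85.5, 83.1 and 89.5 CPM in the control libraries. The groups did not overlap, and the level was 1.97-fold that of control (log2 fold change 0.98 ± 0.07 standard error, adjusted p = 6.28e-10). AARS1, the alanyl enzyme (chromosome 16, 70251983 to 70289707, minus strand), had 697, 826, 756, 699 and 662 CPM with PS20, against 359.7, 398, 424, 389 and 368 CPM in control. Again each PS20 library was above each control library, and the log2 fold change was 0.91 ± 0.07 (adjusted p = 1.39e-09).

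For WARS1, the tryptophanyl enzyme (chromosome 14, 100333790 to 100376805, minus strand), the PS20 libraries had 85.0, 119.5, 104, 97.7 and 107 CPM, against 49.1, 59.6, 65.4, 60.7 and 65.3 CPM in control. These did not overlap either, with a log2 fold change of 0.77 ± 0.09 (adjusted p = 3e-07); 10.6% of its exonic bases overlap another gene. YARS1, the tyrosyl enzyme (chromosome 1, 32775237 to 32818031, minus strand), had 167, 188, 165, 158 and 163 CPM with PS20, against 104, 92.5, 112, 104 and 120.4 CPM in control. All 5 PS20 values exceeded all 5 control values, and the log2 fold change was 0.66 ± 0.07 (adjusted p = 3.08e-07). The cysteinyl enzyme CARS1 (chromosome 11, 3000922 to 3057613, minus strand) had 2.66, 3.51, 2.65, 2.91 and 2.28 CPM with PS20, against 2.14, 1.26, 0.955, 1.32 and 1.37 CPM in control. Its log2 fold change was 1.003 ± 0.23 (adjusted p = 0.0013), but it rested on 18 to 46 counts per PS20 library and 4 to 18 per control library.

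The other cytosolic genes that passed rose by less. IARS1 (isoleucine) rose by 0.58 on the log2 scale, to 241 ± 21.2 CPM with PS20, against 161 ± 3.36 CPM in control (SD, n = 5). MARS1 (methionine) rose by 0.43, GARS1 (glycine) by 0.39, LARS1 (leucine) by 0.31 and EPRS1 by 0.22. MARS1 shares 13.3% of its exonic bases with other genes, among them DDIT3, whose own log2 fold change with PS20 was 1.69. TARS1 and FARSB, a subunit of the phenylalanyl enzyme, each rose by 0.21, and NARS1 (asparagine) rose by 0.12 with an adjusted p of 0.0397. GARS1 and KARS1 each supply both compartments, and only GARS1 of these passed the test.

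Cytosolic genes at the other end did not pass. FARSA, the partner subunit of FARSB, had 69.2, 63.5, 75.6, 75.2 and 72.8 CPM with PS20, against 76.8, 72.5, 76.4, 74.7 and 67.2 CPM in control, and the groups overlapped (log2 fold change -0.04 ± 0.06, adjusted p = 0.629). HARS1, the histidyl enzyme, had 75.1, 66.6, 77.7, 82.5 and 91.3 CPM with PS20, against 81.9, 79.4, 94.3, 91.6 and 87.0 CPM in control, also overlapping (log2 fold change -0.14 ± 0.08, adjusted p = 0.133). QARS1, KARS1 and RARS1 had log2 fold changes of 0.09, 0.04 and 0.01. These 3 belong to the multi-synthetase complex, of whose 7 cytosolic members 4 rose, against 9 of the 11 free enzymes. By catalytic fold, 6 of 8 class I and 6 of 9 class II enzymes rose, leaving aside EPRS1, which holds both. With PS20 all 6 genes with the promoter motif rose, against 5 of the 10 matched genes without it, where 24.4% of all tested genes rose. With PS80 4 of the 6 rose, against 4 of the 10, where 17.4% of all tested genes rose. LARS1 and YARS1, which had no matched promoter, rose with both compounds. The call of 1 of the 6, NARS1, depends on single libraries. CARS1, whose level is not read as expression, counts among the free, class I and motif genes that rose. Between these subsets no test was made, and a role of ATF4 was not tested.

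**Figure D2:**
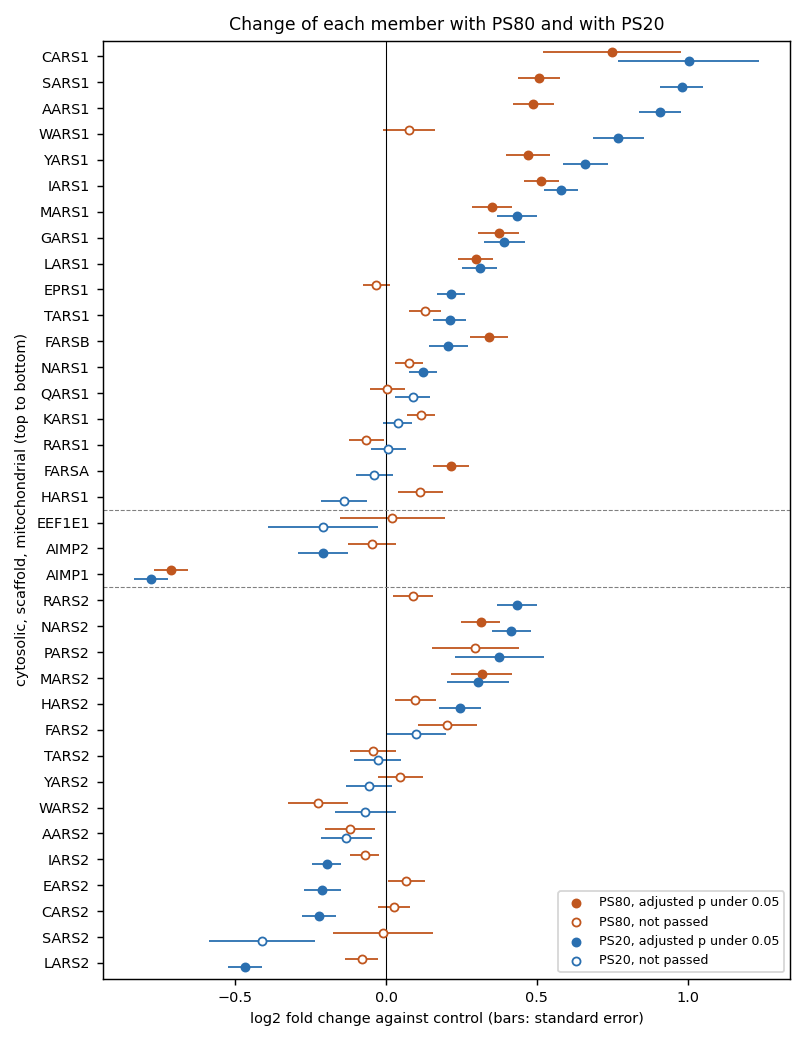
Log2 fold change against control of each gene for PS80 (orange, upper mark) and PS20 (blue, lower mark), with standard errors as bars and filled marks where the adjusted p was below 0.05. Cytosolic genes stand at the top, the 3 scaffold genes in the middle and mitochondrial genes at the bottom; 13 cytosolic marks are filled to the right for PS20 and 10 for PS80.

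Mitochondrial enzymes that rose with PS20 were led by RARS2, the arginyl enzyme (chromosome 6, 87513459 to 87590028, minus strand). It had 90.5, 103, 81.3, 88.3 and 91.0 CPM with PS20, against 69.9, 71.9, 61.1, 65.5 and 66.5 CPM in control, without overlap (log2 fold change 0.43 ± 0.07, adjusted p = 1.75e-05). NARS2, the asparaginyl enzyme (chromosome 11, 78435620 to 78575194, minus strand), had 72.0, 77.2, 74.1, 69.2 and 72.5 CPM with PS20, against 58.5, 58.5, 46.8, 51.2 and 58.1 CPM in control, without overlap (log2 fold change 0.42 ± 0.07, adjusted p = 2.41e-05). PARS2, MARS2 and HARS2, for proline, methionine and histidine, rose by 0.38, 0.30 and 0.25 on the log2 scale.

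LARS2, the mitochondrial leucyl enzyme (chromosome 3, 45388561 to 45554726, plus strand), had the steepest called decrease of the mitochondrial set. It had 77.9, 65.5, 75.5, 74.2 and 74.5 CPM with PS20, against 95.2, 102, 106, 99.2 and 107 CPM in control. Each PS20 library was below each control library, and LARS2 fell by 0.47 ± 0.06 on the log2 scale (adjusted p = 8.85e-07). CARS2, for cysteine (chromosome 13, 110641412 to 110713603, minus strand), had 35.5, 36.5, 39.0, 35.8 and 38.1 CPM with PS20, against 42.5, 43.9, 44.4, 41.6 and 44.3 CPM in control, without overlap (log2 fold change -0.22 ± 0.06, adjusted p = 0.0022). EARS2 (glutamate) fell by 0.21, and IARS2, the gene with the highest level per length, fell by 0.20. SARS2, for serine, had 5.03, 3.51, 4.20, 4.92 and 3.12 CPM with PS20, against 4.50, 5.05, 6.45, 5.35 and 6.42 CPM in control, with overlap (log2 fold change -0.41 ± 0.18, adjusted p = 0.0591). The 5 others that did not pass, AARS2, FARS2, TARS2, WARS2 and YARS2, had log2 fold changes from -0.13 to 0.10.

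In the scaffold AIMP1 and AIMP2 fell with PS20 and EEF1E1 did not pass. AIMP1, a structural core of the complex and the precursor of a secreted cytokine (chromosome 4, 106315544 to 106349456, plus strand), had 106, 101, 116, 105 and 104 CPM with PS20, against 201, 183, 182, 178 and 171 CPM in control. No values overlapped, and the level was 1.72-fold lower (log2 fold change -0.78 ± 0.06, adjusted p = 9.39e-10). It shares 5.14% of its exonic bases with TBCK, a neighbouring gene with a log2 fold change of -0.31 (adjusted p = 0.0022). AIMP2, which bridges members of the complex, had 29.4, 34.0, 32.4, 37.3 and 33.3 CPM with PS20, against 32.2, 36.3, 43.5, 40.2 and 40.6 CPM in control. These groups overlapped, and AIMP2 fell by 0.21 ± 0.08 (adjusted p = 0.0398). Of its exonic bases 29.1% overlap EIF2AK1, which itself had a log2 fold change of -0.12 with PS20 (adjusted p = 0.0293). EEF1E1 had 10.2, 10.7, 8.93, 7.71 and 12.7 CPM with PS20, against 11.8, 6.32, 15.8, 14.2 and 10.5 CPM in control, with overlap (log2 fold change -0.21 ± 0.18, adjusted p = 0.362). Of the exonic bases of EEF1E1 18.8% overlap another annotated gene, EEF1E1-BLOC1S5. EEF1E1 passed as lower without control replicate 2 (log2 fold change -0.39, adjusted p = 0.0368) and in replicates 3 to 5 alone (-0.47, adjusted p = 0.016).

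Calls with PS20 differed between subsets of the libraries. With replicates 1 and 2 alone 8 cytosolic genes rose, and with replicates 3 to 5 alone 14 did. Over all genes, replicates 1 and 2 alone gave 3116 calls in either direction, against 6163 with all libraries. The cytosolic median log2 fold change was 0.35 with replicates 1 and 2 alone, against 0.26 with all libraries. The call of NARS1 was lost without any 1 of 8 libraries (control replicates 2, 4 and 5, PS20 replicates 1, 2, 4 and 5 and PS80 replicate 5), at adjusted p of 0.0534 to 0.101. That of PARS2 was lost without any 1 of 7 (control replicates 3, 4 and 5 and PS20 replicates 1, 2, 4 and 5), at 0.0505 to 0.108. That of AIMP2 was lost without any 1 of 7 (control replicates 3, 4 and 5 and PS20 replicates 1, 2, 3 and 5), at 0.0535 to 0.0971. MARS2 had 0.21 without control replicate 2 (adjusted p = 0.0758) and 0.26 without PS20 replicate 5 (adjusted p = 0.058).

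Pairing enzymes for the same amino acid gave 16 cytosolic and mitochondrial pairs, in which EPRS1 and FARS2 each stand more than once. With PS20 the cytosolic log2 fold change was above the mitochondrial one in 11 of 16 pairs, with a median difference of 0.33. These 11 include CARS1 with CARS2 and SARS1 with SARS2, where the levels of CARS1 and SARS2 are not read as expression. The differences of these pairs, 1.225 and 1.392, were the largest. In leucine the values were 0.31 for LARS1 and -0.47 for LARS2, both past the test. In serine they were 0.98 for SARS1 and -0.41 for SARS2, but SARS2 did not pass, and its exons are shared with an annotated copy. The order was turned in arginine, where RARS1 had 0.01 and RARS2 0.43, and in histidine, where HARS1 had -0.14 and HARS2 0.25. With PS80 the cytosolic value was above in 12 of 16 pairs, with a median difference of 0.16. The pairs of CARS1 and of SARS1 were again among the 12.

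**Figure D3:**
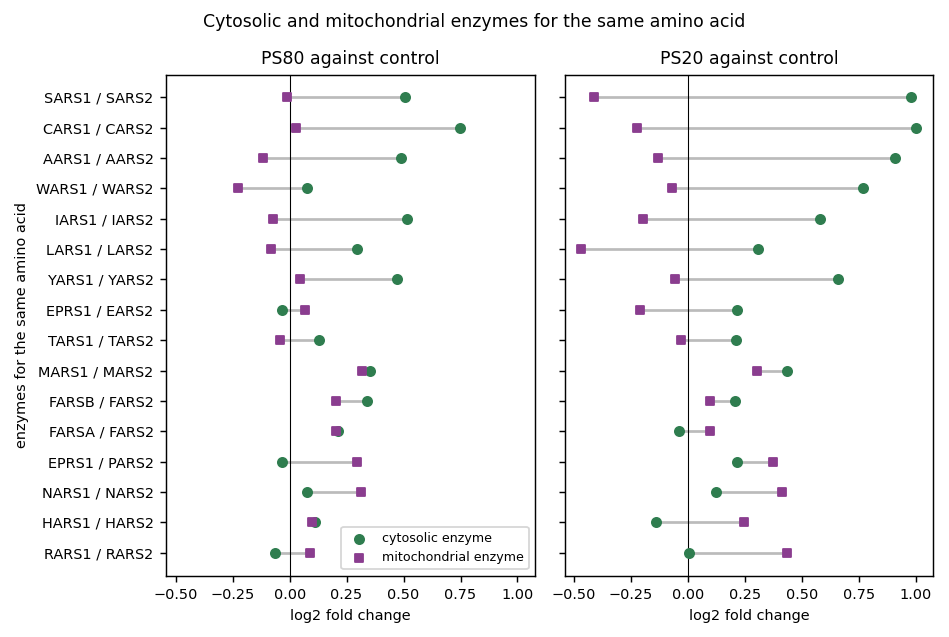
Log2 fold change against control of the cytosolic enzyme (green circles) and the mitochondrial enzyme (purple squares) for the same amino acid, with PS80 on the left and PS20 on the right. The circle lies to the right of the square in 12 of 16 pairs with PS80 and in 11 of 16 with PS20.

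Summed over the set, the cytosolic enzymes had 3985 ± 178 CPM with PS80, 4376 ± 198 CPM with PS20 and 3418 ± 84.2 CPM in control (SD, n = 5 each). The mitochondrial sums were 1096 ± 36.1 CPM with PS80, 1039 ± 20.2 CPM with PS20 and 1097 ± 32.8 CPM in control. The ratio of the cytosolic to the mitochondrial sum was 3.66, 3.67, 3.66, 3.49 and 3.71 in the PS80 libraries, 4.06, 4.56, 4.27, 4.18 and 4.01 in the PS20 libraries and 2.92, 3.01, 3.35, 3.14 and 3.19 in the control libraries. No value of one group fell within the range of another, with PS20 highest and control lowest. Genes with high counts weigh most in these sums. In the mitochondrial sum IARS2 alone averaged 484.9 CPM with PS80, 444.4 CPM with PS20 and 509.5 CPM in control. In the cytosolic sum AARS1 averaged 543.9, 728 and 387.9 CPM in the same order. The mean log2 ratio was 0.43 higher with PS20 than in control and 0.22 higher with PS80 than in control. Without GARS1, KARS1 and QARS1 these differences were 0.49 and 0.25. The scaffold summed to 161 ± 9.24 CPM with PS80, 149.6 ± 4.70 CPM with PS20 and 233 ± 9.87 CPM in control.

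**Figure D4:**
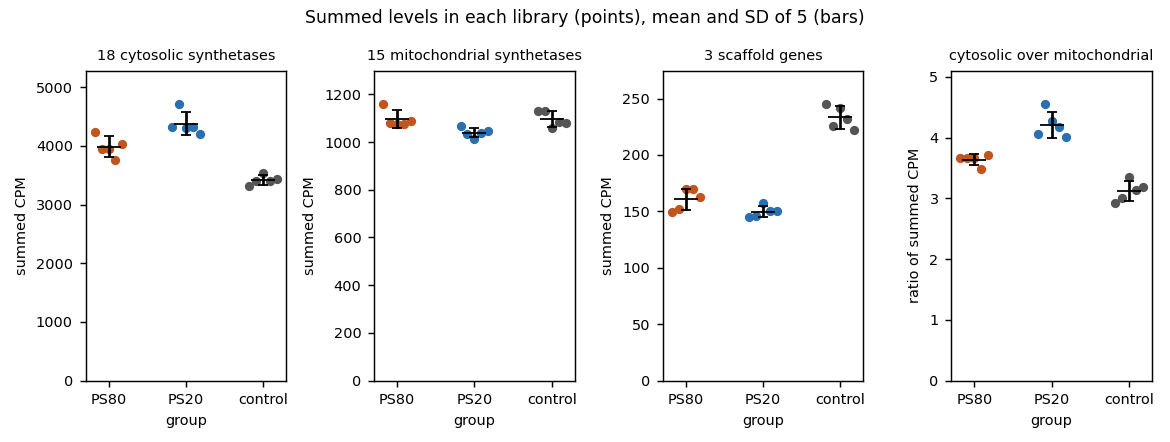
Summed CPM of the cytosolic, mitochondrial and scaffold genes and the ratio of the cytosolic to the mitochondrial sum in each of the 15 libraries, by group, with the mean and SD as bars and all axes from 0. The ratio lies between 3.49 and 3.71 with PS80, between 4.01 and 4.56 with PS20 and between 2.92 and 3.35 in control.

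With PS80, 10 of the 18 cytosolic synthetases rose and 0 fell, where 17.4% of all tested genes rose and 16.0% fell, by the same test. CARS1, whose level is not read as expression, is among the 10. The cytosolic median was 0.26, against 0.00 over all tested genes, and in 9 of 18 genes all PS80 libraries were above all control libraries, as in 10.3% of all tested genes. Of the mitochondrial genes 2 of 15 rose, 0 fell, and the median was 0.05. At an unadjusted p below 0.05 in edgeR 0 cytosolic genes and 1 mitochondrial gene were lower, and DESeq2 called 0 lower in both sets. In the scaffold AIMP1 alone fell, with all PS80 libraries below all control libraries, as in 9.30% of all tested genes. This comparison shares its 5 control libraries with the one above. PS80 replicates 1, 3, 4 and 5 were counted with another version of the counting program than the other 11 libraries, which cannot be told apart from PS80 in those 4 libraries. Replicate 2 was counted like the controls, but at 42271053 counts it was also the deepest library. The other PS80 libraries had 6769409 to 22776649 counts, so version and depth cannot be told apart in replicate 2. Replicate 2 lay within the range of the other PS80 libraries in 11 of the 13 members called with PS80 and below it in FARSB and MARS2. Over all 36 members it was within in 22, below in 10 and above in 4.

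SARS1 had 137, 131, 119, 108 and 125 CPM in PS80 replicates 1 to 5, against the control values given above, with no overlap (log2 fold change 0.51 ± 0.07, adjusted p = 1.56e-05). AARS1 had 602, 596, 535, 484 and 503 CPM with PS80, also all above control (0.49 ± 0.07, adjusted p = 1.96e-05). YARS1 had 168, 146, 142, 128 and 152 CPM, above every control library (0.47 ± 0.07, adjusted p = 6.41e-05).

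WARS1 had 57.1, 60.1, 66.3, 65.3 and 68.6 CPM with PS80, which overlapped control, and did not pass (0.08 ± 0.09, adjusted p = 0.528). FARSA had 81.3, 86.4, 89.3, 81.1 and 87.3 CPM with PS80, every library above control (0.21 ± 0.06, adjusted p = 0.00915). CARS1 had 1.82, 2.81, 2.98, 1.82 and 2.08 CPM with PS80, which overlapped control. Its log2 fold change was 0.75 ± 0.23 (adjusted p = 0.0148), and without PS80 replicate 2 it was 0.62 (adjusted p = 0.0627), past no threshold. IARS1, FARSB, GARS1, MARS1 and LARS1 rose by 0.51, 0.34, 0.37, 0.35 and 0.30 on the log2 scale. In FARSB replicate 2 had 165.9 CPM and the other PS80 libraries 193.8 to 207 CPM, against 142.7 to 164.5 CPM in control, and without replicate 2 the log2 fold change was 0.40. HARS1 had 90.2, 88.5, 90.9, 94.3 and 105 CPM with PS80 and overlapped control (0.11 ± 0.07). The others that did not pass, EPRS1, KARS1, NARS1, QARS1, RARS1 and TARS1, had values between -0.07 and 0.13. In the fit blocked by replicate number KARS1 and TARS1 passed as higher, at 0.11 and 0.13 (adjusted p = 0.0433 and 0.0475).

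AIMP1 had 102, 108, 120.1, 117 and 110.1 CPM with PS80, all below control, and fell by 0.71 ± 0.06 on the log2 scale (adjusted p = 2.05e-08). TBCK, its overlapping neighbour, had a log2 fold change of -0.15 that did not pass. AIMP2 had 37.9, 32.8, 37.7, 39.9 and 39.4 CPM and EEF1E1 had 9.72, 11.2, 11.6, 12.5 and 13.1 CPM with PS80, both overlapping control. Their log2 fold changes were -0.05 ± 0.08 and 0.02 ± 0.17. Of the mitochondrial genes NARS2 had 72.5, 66.0, 67.8, 64.3 and 69.4 CPM with PS80, all above control (0.31 ± 0.06, adjusted p = 0.000919), and MARS2 rose by 0.32 ± 0.10, against 0.22 without control replicate 2 (adjusted p = 0.0729) and 0.25 without PS80 replicate 5 (adjusted p = 0.0719).

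RARS2, LARS2, CARS2 and SARS2 did not pass with PS80. RARS2 had 75.7, 69.0, 66.9, 69.9 and 74.8 CPM with PS80 (0.09 ± 0.07, adjusted p = 0.327). LARS2 had 92.9, 94.4, 102, 97.7 and 95.0 CPM (-0.08 ± 0.06, adjusted p = 0.275). CARS2 had 43.8, 43.6, 44.7, 45.5 and 43.1 CPM (0.03 ± 0.05) and SARS2 had 6.48, 5.01, 6.71, 4.09 and 5.50 CPM (-0.01 ± 0.17). All 4 overlapped the control libraries. In the blocked fit WARS2, for tryptophan, was the 1 mitochondrial gene called lower with PS80 (log2 fold change -0.25, adjusted p = 0.0277), against 0 without the block, where WARS2 had -0.23 (adjusted p = 0.0863).

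**Figure D5:**
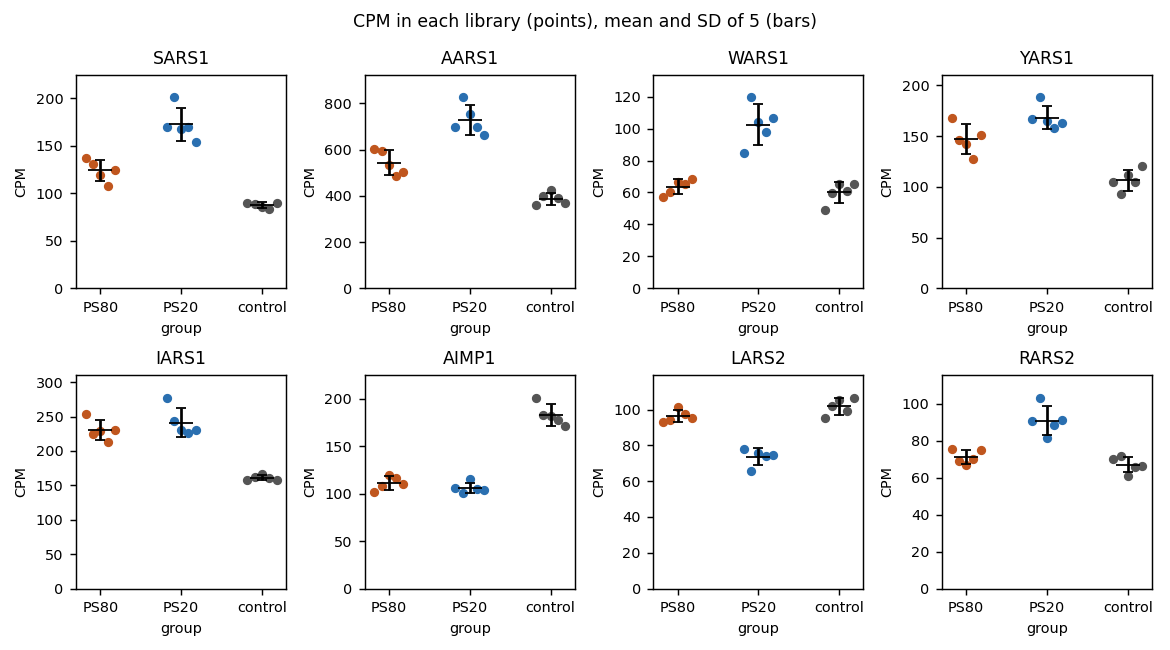
CPM of 8 genes in each PS80, PS20 and control library (points), with the mean and SD of 5 libraries as bars and axes from 0. WARS1 and RARS2 with PS20 lie above both other groups, LARS2 with PS20 lies below both, and AIMP1 is lower with PS80 and with PS20 than in control.

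Set directly against each other at the same dose and time, the compounds differed in a share of members near that of all genes. Calls in either direction were made for 7 of 18 cytosolic and 5 of 15 mitochondrial genes, where 35.5% of all tested genes were called. This was 1 pair of compounds, so no adjustment over pairs applied. As against control, the version of the counting program cannot be told apart from PS80 in replicates 1, 3, 4 and 5. Relative to PS20, 5 of 18 cytosolic genes were lower with PS80 and 2 were higher, where 17.3% of all tested genes were lower and 18.2% higher. Of the 15 mitochondrial genes 4 were higher with PS80 and 1 lower, and 0 of the 3 scaffold genes passed in edgeR. Of these 3, 0 had an unadjusted p below 0.05, 0 passed in DESeq2, and AIMP2 had the smallest adjusted p in edgeR, 0.115. AIMP2 did pass as higher with PS80 without PS80 replicate 2 (log2 difference 0.22, adjusted p = 0.0383), in replicates 3 to 5 alone (0.19, adjusted p = 0.0435) and in the blocked fit (0.17, adjusted p = 0.0445). EEF1E1 passed in replicates 3 to 5 alone (0.38, adjusted p = 0.0464). The median log2 difference was -0.08 over the cytosolic set, 0.01 over the mitochondrial set and 0.00 over all tested genes.

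WARS1 differed most: PS80 gave 63.5 ± 4.75 CPM and PS20 gave 102 ± 12.6 CPM (SD, n = 5 each), with no overlap and a log2 difference of -0.69 ± 0.08 (95% interval -0.87 to -0.52, adjusted p = 2.17e-06). SARS1 averaged 124 ± 11.3 CPM with PS80 and 172 ± 17.1 CPM with PS20, again without overlap (-0.47, interval -0.61 to -0.33, adjusted p = 1.67e-05). AARS1 and EPRS1 were lower with PS80 by 0.42 and 0.25 on the log2 scale, both without overlap. YARS1 had -0.19 with overlap (adjusted p = 0.0421), a call lost without any 1 of 9 libraries (control replicate 4, PS20 replicates 1, 2, 3 and 5 and PS80 replicates 2 to 5), at adjusted p of 0.0514 to 0.133. FARSA and HARS1 were each higher with PS80 by 0.25. In the mitochondrial set LARS2, EARS2 and CARS2 were higher with PS80 by 0.39, 0.28 and 0.25, all without overlap. RARS2 was lower with PS80 (log2 difference -0.35), without overlap. IARS2 had 0.13 (adjusted p = 0.0466), a call lost without any 1 of 9 libraries (control replicates 4 and 5, PS20 replicates 2 to 5 and PS80 replicates 1, 4 and 5), at adjusted p of 0.0512 to 0.143.

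For the other members called with both compounds, no difference between the compounds passed, and the intervals bound its size. The log2 difference was -0.07 for IARS1 (95% interval -0.18 to 0.05), -0.02 for GARS1 (-0.16 to 0.12), -0.01 for LARS1 (-0.13 to 0.11) and -0.08 for MARS1 (-0.22 to 0.05). It was 0.06 for AIMP1 (-0.05 to 0.18), -0.10 for NARS2 (-0.23 to 0.03) and 0.01 for MARS2 (-0.19 to 0.21). FARSB had 0.13 with an interval above 0 (0.004 to 0.26), but its adjusted p was 0.101. CARS1 had the widest of these intervals, -0.66 to 0.15, at few counts. Among the remaining members that did not pass, intervals reached 0.75 in the mitochondrial set, where SARS2 had 0.40. In the scaffold they reached 0.59, where EEF1E1 had 0.23.

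Genes that act beside the synthetases moved in both directions. Of 23 listed partners of tRNA charging 18 were tested. With PS80 4 rose and 2 fell, a share near the 33.4% of all tested genes called in either direction. With PS20 7 rose and 4 fell, where 48.3% of all tested genes were called, and the median log2 fold change was 0.04. SEPHS2, which makes the selenium donor for selenocysteine, had 178, 185, 184, 183 and 172 CPM with PS80, 244, 284, 268, 275 and 263 CPM with PS20 and 192, 194, 156, 177 and 175 CPM in control. PS20 was above both other groups without overlap (log2 fold change against control 0.58 ± 0.06 with PS20 and 0.01 ± 0.06 with PS80). SEPSECS, which forms selenocysteine on its tRNA, and PSTK, the kinase of the preceding step, were named outside the rule of smallest p with PS20. SEPSECS rose with PS20 by 0.39 on the log2 scale, to 10.7 ± 1.90 CPM, against 8.27 ± 1.65 CPM in control (SD, n = 5). PSTK fell by 0.48, to 5.44 ± 0.823 CPM, against 7.50 ± 0.854 CPM in control. Both overlapped the control libraries.

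XPOT, the exporter of tRNA from the nucleus, had 253, 225, 241, 248 and 252 CPM with PS80, 273, 310.4, 272, 266 and 244 CPM with PS20 and 192, 178, 202, 196 and 187 CPM in control. Both treated groups were above control (log2 fold change 0.35 ± 0.06 with PS80 and 0.52 ± 0.06 with PS20). EEF1A1, the elongation factor that carries charged tRNA, had 7456, 7666, 6253, 5957 and 6749 CPM with PS80, 8694, 9238, 7951, 7672 and 8054 CPM with PS20 and 6412, 6838, 5596, 6093 and 5509 CPM in control. It rose with PS20 (0.45 ± 0.07) and did not pass with PS80 (0.16 ± 0.07), and its many processed copies make the count uncertain.

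Reporter genes of ATF4 outside the synthetases, with ATF4 itself on the list, were set beside them. The list was chosen with earlier results of these data known, and a role of ATF4 was not tested. ASNS and NUPR1, which averaged 0.442 and 0.292 CPM in control, did not pass the filter on low counts. Of 22 tested genes of a list of 24, 16 rose and 1 fell with PS80, where 17.4% of all tested genes rose and 16.0% fell. With PS20 19 rose and 0 fell, where 24.4% rose and 23.9% fell. Between the compounds 16 were lower and 1 higher with PS80, where 17.3% were lower and 18.2% higher. The median log2 fold change was 0.40 with PS80 and 0.92 with PS20. The 3 genes with the smallest p with PS20 are given first. SLC7A11, the cystine importer, had 52.6, 39.0, 40.8, 35.3 and 41.5 CPM with PS80, 118, 142, 104, 112 and 85.2 CPM with PS20 and 21.9, 15.6, 27.7, 23.8 and 22.8 CPM in control, 3 ranges without overlap. ALDH1L2, a mitochondrial folate enzyme, averaged 11.5 ± 1.53 CPM with PS80, 24.0 ± 3.97 CPM with PS20 and 4.28 ± 0.881 CPM in control. STC2, a secreted glycoprotein, averaged 169 ± 17.2 CPM, 243 ± 17.8 CPM and 114 ± 8.98 CPM in the PS80, PS20 and control groups. Their log2 fold changes with PS20 were 2.35, 2.47 and 1.10, each above the value of any cytosolic synthetase. The 3 that did not pass with PS20, named after their values were seen, were PSPH, an enzyme of serine synthesis, at -0.02, SLC7A5, an importer of large neutral amino acids, at 0.00 and VLDLR, a lipoprotein receptor, at 0.16. PSPH was the 1 that fell with PS80, and SLC7A5 the 1 higher with PS80 than with PS20. The response element letters were present in 5 of 18 matched promoters of this list (27.8%) and in 0 of 18 of the charging partners.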

How the data were processed

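Polyadenylated RNA of 15 libraries was counted per gene. Per the file headers, the authors deposited raw read counts from featureCounts, version 2.0.0 in 11 libraries and 2.0.3 in 4, on GENCODE 42, requiring mapping quality 10 and setting no strand or pair option, so overlapping and antisense genes are not separated. The submitters' processing notes name cutadapt, STAR 2.7.9a, DESeq2 1.32.0 and GRCh38.

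These counts were tested with edgeR 4.0.16 in R 4.3.3 (quasi-likelihood test, TMM factors 0.978 to 1.015, filterByExpr with minimum count 10 and total 15, leaving 12769 genes), in 1 model over 3 groups, with Benjamini-Hochberg adjustment at 0.05. The common coefficient of variation was 8.91%. CPM and TPM were computed here. DESeq2 1.42.0, another normalization, no filter, fewer libraries and a replicate block were alternatives. The script was tested on simulated data. Replicate numbers come from the titles. Deviations of same-numbered PS80 and control libraries correlated at 0.102 to 0.304, but PS80 replicates 1 and 5 correlated more with a control library of another number. Figures were drawn with matplotlib.

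The members and lists were chosen with earlier results of these data known. Values in every library are given for the 5 cytosolic genes highest and 2 lowest by log2 fold change with PS20, the 2 mitochondrial genes highest and 3 lowest, the scaffold, the 2 members that differed most between the compounds and 3 genes of each further list. IARS1, shown in a figure, was added after its values were seen. Protein sequences were not used here.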

Additional observations from a re-analysis of the deposited data

Results flagged for a closer look

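In 5 of 108 groups of 5 libraries, 1 library stood far from the other 4 by Dixon's test, at a level that chance gives in about 1 of 20 groups. LARS1 had 283 CPM in PS80 replicate 1, with 239 to 248 CPM in the other PS80 libraries. IARS2 had 533 CPM in the same library, with 469 to 481 CPM in the others. NARS1 had 172 CPM in PS80 replicate 2, with 187 to 189.5 CPM in the others. HARS2 had 64.3 CPM in PS20 replicate 2, with 52.7 to 54.6 CPM in the others. TARS2 had 34.3 CPM in control replicate 5, with 38.8 to 40.1 CPM in the others.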

How the results depend on the processing

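Of the called members, 8 of 13 with PS80, 12 of 24 with PS20 and 7 of 12 between the compounds kept their call under all 22 alternatives, and none of the called members changed direction. With replicates 1 and 2 alone, 2025 genes were called with PS80, 3116 with PS20 and 1397 between the compounds. In that subset PS80 had 0 mitochondrial genes higher, and PS20 had 8 cytosolic genes higher (median 0.35), 2 mitochondrial genes higher and 1 lower. Between the compounds 3 cytosolic genes were then lower and 1 mitochondrial gene higher with PS80. The log2 ratio difference was then 0.31 with PS80 and 0.54 with PS20, a subset added for this ratio after seeing the data, as were replicates 3 to 5 and leaving out libraries. The replicate block gave 1 mitochondrial gene lower with PS80 (WARS2), 1 cytosolic gene lower with PS20 (HARS1) and 2 mitochondrial genes lower between the compounds (HARS2 beside RARS2). It added calls of KARS1 and TARS1 with PS80, SARS2 with PS20, and AIMP2 and SARS2 between the compounds, and changed no other call among the 36 genes. In PS20 against control the correlations of same-numbered libraries were -0.03 to 0.25, and PS20 replicate 4 correlated more with another number. Between the compounds they were 0.07 to 0.29, and PS80 replicates 2 and 4 correlated more with another number. In every comparison the block stands only as an alternative.

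Leaving out 1 library gave 1 to 2 mitochondrial genes higher with PS80, and 0 to 1 cytosolic lower and 3 to 5 mitochondrial higher with PS20, the 1 (HARS1, -0.20, adjusted p = 0.0354) and the 3 both without PS20 replicate 5. SARS2 passed as lower with PS20 without control replicate 1, PS20 replicate 1 or PS20 replicate 4, in replicates 3 to 5 and in the fit to the 2 groups (-0.52 to -0.41). Between the compounds FARSB passed as higher with PS80 in replicates 3 to 5 and without PS80 replicate 2 (0.19 in both), and SARS2 without PS20 replicate 1 (0.47) and without PS80 replicate 4 (0.48). The mitochondrial median between the compounds was 0.0075 to 0.064. Some members not called turned sign. With PS80, SARS2 had 0.014 without a filter, 0.22 in replicates 1 and 2 and -0.069 to 0.064 leaving out 1 library. AIMP2 had 0.020 in replicates 1 and 2 and -0.10 to 0.0074 leaving out 1 library, and EEF1E1 -0.087 in replicates 3 to 5 and -0.16 to 0.14. With PS20, EEF1E1 had 0.27 in replicates 1 and 2 and FARSA 0.044 in replicates 3 to 5. Between the compounds GARS1 had 0.0128 without a filter, 0.0132 in replicates 3 to 5 and -0.066 to 0.042 leaving out 1 library. LARS1 had 0.0188, 0.0041 and -0.059 to 0.033 in those settings, and MARS2 -0.050 to 0.058 leaving out 1 library. The cause was not tested. Low counts limit CARS1, SARS2 and EEF1E1.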

Other observations

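HARS1 and HARS2 lie head to head on chromosome 5, at 140673035 to 140691537 on the minus strand and 140691430 to 140699305 on the plus strand, and their annotated spans overlap. With PS80 their log2 fold changes against control were 0.11 and 0.10, neither of which passed. With PS20 they were -0.14, which did not pass, and 0.25, which did (adjusted p = 0.00619). Between the compounds HARS1 was higher with PS80 by 0.25 (adjusted p = 0.0109), and HARS2 had -0.15 (adjusted p = 0.0895). Counting without strand limits the separation of this pair, with 8.46% of HARS1 and 6.99% of HARS2 exonic bases in another gene.

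EPRS1 and IARS2 lie on the same chromosome, 1, at 219968600 to 220046530 and 220094132 to 220148041. With PS20 EPRS1 rose by 0.22 and IARS2 fell by 0.20 on the log2 scale.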
